A study of Aspergillus nidulans FGSC A4 with 21 samples.

Results

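The transcripts described here encode 6 enzymes that handle sugar phosphates in *Aspergillus nidulans*: glucose 6-phosphate dehydrogenase (*gsdA*, AN2981), ribulose-phosphate 3-epimerase (AN7588), phosphoketolase (*phk*, AN4913), glucose-6-phosphate isomerase (*swoM*, AN6037), triose-phosphate isomerase (*tpiA*, AN6900) and a phosphoglycerate mutase (AN8720). They were chosen by name and function from the 2403 genes that the authors list as differentially expressed (DEGs) at 1 or more time points, and each name is the putative assignment given in the tables. BaP-treated cells were hyphae of the wild-type strain FGSC A4 moved, after 18 h in minimal medium with 1% glucose, to medium with 0.1% glucose and 200 μM benzo[*a*]pyrene (BaP), a polycyclic aromatic hydrocarbon dissolved in DMSO, and sampled after 6, 24 or 48 h. Control cells were the same hyphae moved in the same way and given the same volume of DMSO. There were 3 libraries of polyadenylated RNA for each treatment and time point. The study asked whether the fungus uses BaP as a substrate for growth, and these genes bear on how the cells' central sugar metabolism differed between treatments.

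Glycolysis converts glucose 6-phosphate through fructose phosphates and triose phosphates to pyruvate. The pentose phosphate pathway leaves it at glucose 6-phosphate: its oxidative branch, opened by glucose 6-phosphate dehydrogenase, makes NADPH for biosynthesis and defence against oxidants, and its non-oxidative branch interconverts pentose phosphates and returns carbon to glycolysis. Phosphoketolase cleaves xylulose 5-phosphate, a product of the epimerase, to glyceraldehyde 3-phosphate and acetyl phosphate, and so offers a route from pentose phosphates to acetyl units that bypasses lower glycolysis.

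Transcript levels are given as RPKM, reads scaled to a kilobase of transcript and to the library's size in M (mega) reads. This size was recovered from the values and lay between 5.98 and 13.7 M for all 18 libraries. The paper states more high-quality reads per sample, a number above the range searched here, so the recovered size may differ from the reads sequenced. On this scale a member gene had between 244 reads (*phk* in DMSO library D27) and 8166 reads (*phk* in BaP library B22) in 1 library. At 6 h the BaP libraries held at most 11.0 M reads and the DMSO libraries at least 11.7 M, and at 48 h the BaP libraries held at most 7.28 M and the DMSO libraries at least 8.41 M, so depth and treatment cannot be told apart at these times. The controls differed among themselves at the later times: DMSO library D26 at 24 h and D33 at 48 h lay nearest to the BaP libraries for each member listed there, and D27 lay farthest at 24 h. Among the 24-h controls, D26 (9.20 M) alone lay within the size range of the BaP libraries (8.18 to 9.52 M), and D27 (12.2 M) was the largest. D33 (8.41 M) was the smallest control at 48 h. Whether library size bears on these differences was not tested. A gene was counted as changed when its log2 fold change in limma on log2(RPKM + 1), fitted on the 3 BaP and 3 DMSO libraries of 1 time point, was over 1 or under -1 with a Benjamini-Hochberg adjusted p under 0.05. Since the authors chose the listed genes on these same libraries, an adjusted p here cannot count as independent evidence, and a gene is not analysed at a time at which it is not listed.

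All 6 genes were more abundant in BaP-treated cells than in controls at each time point at which they were listed. At 6 h, 3 of the 3 listed members (AN7588, *phk* and AN8720) passed the threshold upward, as did 63.6% of all genes listed at that time. At 24 h, 4 of 4 (*gsdA*, *phk*, *swoM* and *tpiA*) passed upward, against 41.5% of the listed genes. At 48 h, 4 of 4 (*gsdA*, AN7588, *swoM* and *tpiA*) passed upward, against 40.9%. Downward calls made up 10.4% of the listed genes at 6 h, 32.6% at 24 h and 43.0% at 48 h, so that calls in either direction came to 74.0%, 74.1% and 83.9%. In these 11 pairs of gene and time point, no BaP library overlapped with a DMSO library. Among all listed genes, the groups did not overlap and BaP was higher for 75.8% at 6 h, 45.0% at 24 h and 49.2% at 48 h. With either direction allowed, the shares were 99.3%, 93.7% and 99.7%, so groups that do not overlap are the rule in these tables. The median log2 fold change of the members was 1.63 at 6 h, 1.24 at 24 h and 1.27 at 48 h. Over the listed genes with a positive log2 fold change it was 1.30, 1.26 and 1.34 at these times, and over all listed genes 1.13, -0.19 and -0.56. At 24 and 48 h the members' median was thus slightly below that of the listed genes that were higher with BaP.

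**Figure D1:**
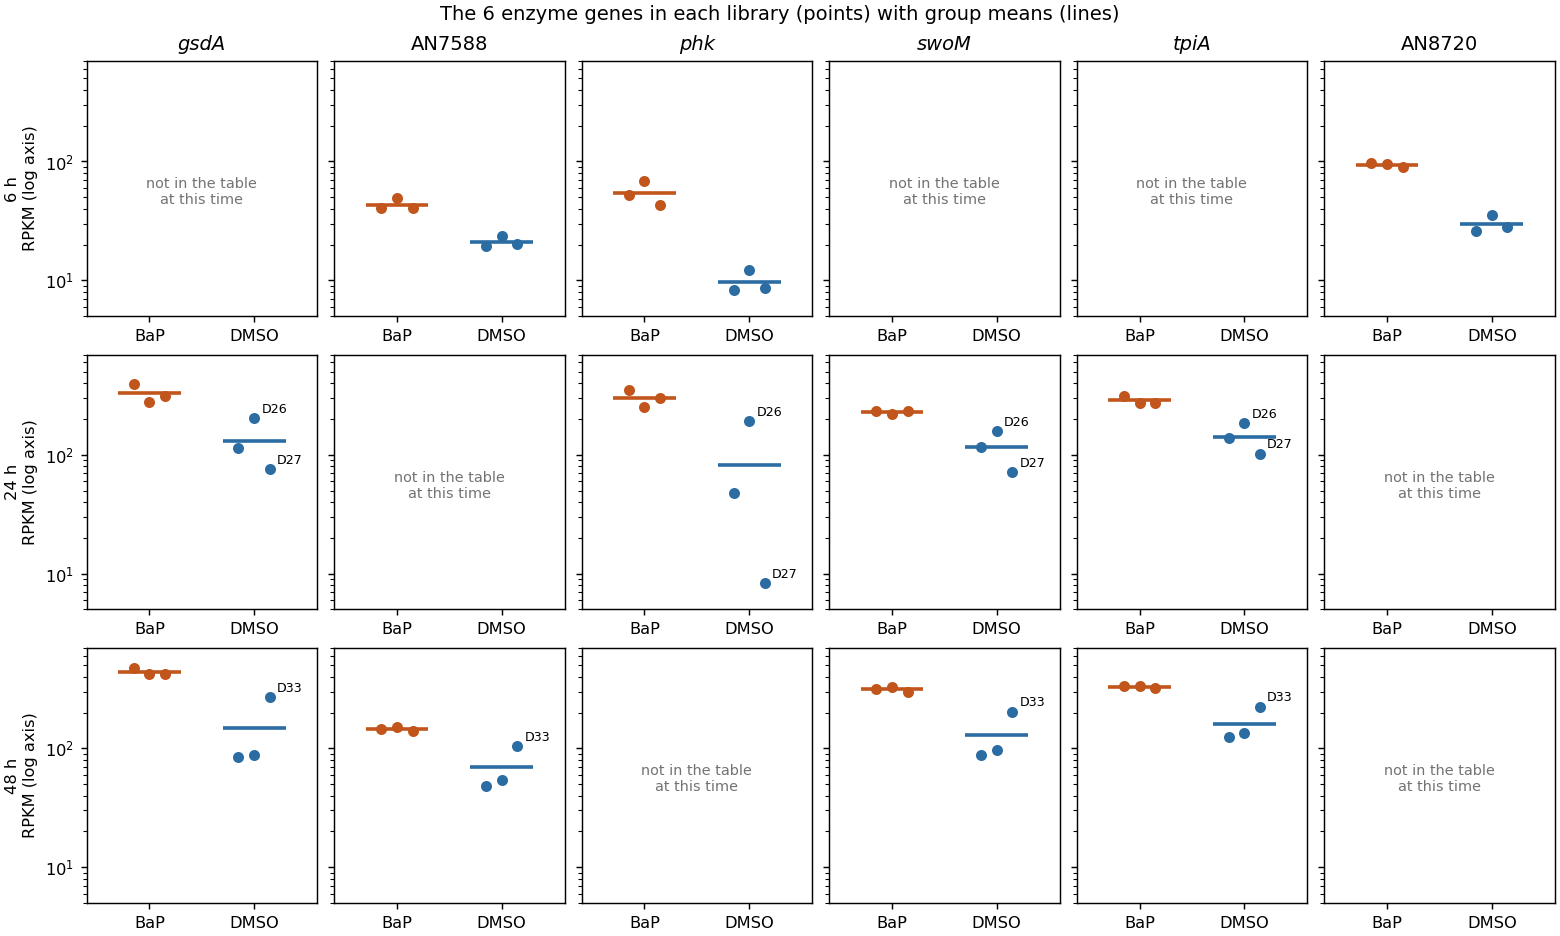
RPKM of each gene on a log axis, with 1 point per library and a line at the group mean, BaP left and DMSO right, for 6, 24 and 48 h from top to bottom; an empty panel marks a time at which the gene was not analysed. Within each panel the 3 BaP points lie above the 3 DMSO points, and the DMSO points are widest for *phk* at 24 h, where D26 reached 192 RPKM and D27 8.29.

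The oxidative branch was represented by *gsdA* (chromosome VI, 2183692 to 2186151, minus strand; the tables name no genome build). At 24 h *gsdA* had 395, 277 and 315 RPKM in BaP-treated cells, against 114, 204 and 75.8 in controls. The lowest BaP library exceeded the highest control, D26, by less than the controls differed among themselves. This gave a log2 fold change of 1.43 (SE 0.38, 95% interval 0.53 to 2.32, limma adjusted p = 0.016). At 48 h *gsdA* had 477, 426 and 422 RPKM with BaP and 83.9, 87.6 and 271 with DMSO, a log2 fold change of 1.80 (SE 0.42, 95% interval 0.91 to 2.69, limma adjusted p = 0.0025). A pair of control cultures lay close together and the third, D33, stood at more than their sum. Without D33 the log2 fold change at 48 h was 2.35, and with any 1 of the 6 libraries left out it stayed past the threshold. At 24 h the call was lost when B22, B24 or D25 was left out. The log2 fold changes were then 1.29, 1.45 and 1.38, with limma adjusted p-values of 0.0588, 0.0624 and 0.0626. In each of these fits, 1 of the 1503 listed genes passed, so the loss was not particular to *gsdA*. The value was 1.09 without D27 and 1.80 without D26. Mean levels (RPKM) of *gsdA* at 24 h were 329 ± 60.1 in BaP-treated cells and 131 ± 65.7 in DMSO, and at 48 h they were 442 ± 30.4 in BaP-treated cells and 147 ± 107 in DMSO (SD, n = 3 each). The ranges of the controls at the 2 times overlapped while those of the BaP-treated cells did not, a comparison made without a test because it is not known whether the tables share a scale.

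In the non-oxidative branch, AN7588 (chromosome IV, 2053088 to 2054326, minus strand) encodes the putative epimerase that interconverts ribulose 5-phosphate and xylulose 5-phosphate. At 6 h AN7588 had 40.9, 49.1 and 40.3 RPKM with BaP and 19.5, 23.6 and 20.3 with DMSO. Each group was tight and the groups lay about as far apart as the fold limit asks. AN7588 thus had a log2 fold change of 1.00 (SE 0.16, 95% interval 0.66 to 1.35, limma adjusted p = 1.5e-05), which is at the limit: it was 0.91 without B17, 0.95 without D19 and 0.98 without D21, and with values rescaled by median-of-ratios factors over the listed genes it was -0.21. Most genes listed at 6 h rose, so this rescaling lowers their values by construction, and it shifts the median log2 fold change of the listed genes by -1.12. At 48 h AN7588 had 146, 152 and 141 RPKM with BaP, against 48.5, 54.5 and 104 with DMSO. D33 was again the control nearest to the BaP libraries. At this time the log2 fold change was 1.16 (SE 0.34, 95% interval 0.42 to 1.89, limma adjusted p = 0.0065), and it was 0.95 without D31. In both groups the level at 48 h was above that at 6 h, with 146 ± 5.50 and 43.4 ± 4.91 RPKM in BaP-treated cells, against 69.0 ± 30.5 and 21.1 ± 2.21 RPKM in controls (SD, n = 3 each), again with no test between the tables.

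Phosphoketolase had the largest fold changes of the 6 genes. The gene *phk* lies on chromosome III, 578121 to 580985, plus strand. At 6 h *phk* had 51.9, 68.4 and 43.0 RPKM with BaP, against 8.28, 12.1 and 8.62 with DMSO. The lowest BaP value was more than 3 times the highest control. For *phk* at 6 h the log2 fold change was 2.37 (SE 0.19, 95% interval 1.96 to 2.78, limma adjusted p = 2.4e-08), the eighth highest among the 703 genes listed, and it stayed past the threshold with any 1 library left out and after rescaling. At 24 h *phk* had 354, 252 and 299 RPKM with BaP, and 47.6, 192 and 8.29 with DMSO. The BaP-treated cultures differed by 1.40 times at most, whereas the highest control was 23.2 times the lowest. At 24 h the log2 fold change was 2.76 (SE 0.95, 95% interval 0.53 to 4.98, limma adjusted p = 0.0283), the sixth highest of 1503 genes, but its size rested on single controls: it was 1.63 without D27 and 3.82 without D26. The call held in both of these fits and was lost when B22, B23, B24 or D25 was left out, with limma adjusted p-values of 0.0806, 0.0657, 0.0756 and 0.0673. In each fit without B22, B24 or D25, 1 of the 1503 listed genes passed, and without B23 1091 passed. In order of level, *phk* averaged 302 ± 50.9 RPKM with BaP at 24 h, 82.8 ± 96.9 with DMSO at 24 h, 54.4 ± 12.9 with BaP at 6 h and 9.67 ± 2.12 with DMSO at 6 h (SD, n = 3 each). The DMSO cultures at 24 h spanned the whole range of the BaP cultures at 6 h, and 1 of them, D27, was as low as the controls at 6 h. No test was made between these times, because it is not known whether the tables share a scale. At 48 h *phk* was not analysed.

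In upper glycolysis, *swoM* (chromosome I, 1440736 to 1442655, minus strand) encodes the isomerase that converts glucose 6-phosphate to fructose 6-phosphate, and mutants of it are known for swollen hyphae that lose polarity. At 24 h *swoM* had 236, 220 and 234 RPKM with BaP and 117, 159 and 71.2 with DMSO. The BaP libraries were within 1.08 times of each other and the controls spread over 2.23 times. Its log2 fold change was 1.06 (SE 0.32, 95% interval 0.30 to 1.82, limma adjusted p = 0.0206), and it was 0.75 without D27. The call was also lost without B22, B24 or D25, at limma adjusted p-values of 0.0633, 0.0678 and 0.0626. In each fit without 1 of these libraries, 1 of the 1503 listed genes passed. At 48 h *swoM* had 317, 329 and 295 RPKM with BaP, against 88.1, 96.2 and 204 with DMSO. The log2 fold change of *swoM* at 48 h was 1.38 (SE 0.36, 95% interval 0.61 to 2.14, limma adjusted p = 0.0038) and stayed past the threshold with any 1 library left out, between 1.16 and 1.76. In BaP-treated cells the values at 48 h lay above those at 24 h, whereas the ranges of the controls overlapped. Again no test was made between the tables.

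Triose-phosphate isomerase, which interconverts the 3-carbon products of aldolase, was represented by *tpiA* (chromosome I, 3517501 to 3518928, plus strand). At 24 h *tpiA* had 316, 273 and 276 RPKM with BaP, against 140, 186 and 102 with DMSO, a log2 fold change of 1.05 (SE 0.28, 95% interval 0.39 to 1.71, limma adjusted p = 0.0161). At 48 h *tpiA* had 332, 336 and 322 RPKM with BaP and 124, 134 and 224 with DMSO, a log2 fold change of 1.08 (SE 0.32, 95% interval 0.39 to 1.78, limma adjusted p = 0.0066). The groups were apart at both times, and the BaP libraries at 48 h differed by 1.04 times at most. Both folds were near the limit. At 24 h the call was lost without B22, B24 or D25, at limma adjusted p-values of 0.0586, 0.0624 and 0.0626. Each fit without B22, B24 or D25 left 1 of the 1503 listed genes past the threshold. The call was also lost without D27, where the log2 fold change was 0.83. At 48 h the value was 0.92 without D31 and 0.98 without D32, under the limit in both cases.

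Lower glycolysis was represented at 6 h by AN8720 (chromosome III, 3025955 to 3027099, plus strand), 1 of the genes annotated as phosphoglycerate mutase, the enzyme that moves the phosphate of 3-phosphoglycerate to the neighbouring carbon. AN8720 had 96.7, 95.9 and 89.5 RPKM in BaP-treated cells, against 26.2, 35.6 and 28.2 in controls. The BaP libraries agreed within 1.08 times and all lay well above D20, the highest control. BaP over DMSO gave a log2 fold change of 1.63 (SE 0.17, 95% interval 1.28 to 1.98, limma adjusted p = 1.3e-07), it stayed past the threshold with any 1 library left out, between 1.54 and 1.76, and after rescaling it was 0.40. At 24 and 48 h AN8720 was not analysed.

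Within a library, the ratio of a pair of genes does not depend on library size, and the ratios show where the members differed among themselves. At 6 h the ratio of *phk* to AN7588 was 1.27, 1.39 and 1.07 with BaP and 0.424, 0.512 and 0.426 with DMSO, so that phosphoketolase transcripts outnumbered epimerase transcripts per length in each BaP library and in no control. At 24 h the ratio of *phk* to *gsdA* was 0.896, 0.910 and 0.948 with BaP and 0.419, 0.944 and 0.109 with DMSO. The ratio in D26 fell within the range of the BaP libraries. The ratio of *gsdA* to *swoM*, the enzymes that compete for glucose 6-phosphate, was 1.67, 1.26 and 1.35 with BaP and 0.972, 1.28 and 1.06 with DMSO at 24 h, where the groups overlapped. At 48 h this ratio was 1.50, 1.29 and 1.43 with BaP and 0.952, 0.911 and 1.32 with DMSO, and D33 alone fell within the BaP range. The ratio of AN7588 to *gsdA* at 48 h was 0.306, 0.357 and 0.335 with BaP and 0.578, 0.622 and 0.385 with DMSO. These ratios were not tested.

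The spread between cultures differed by time and treatment. Over the members, the median SD of log2(RPKM + 1) at 6 h was 0.155 in BaP and 0.225 in DMSO, at 24 h 0.180 in BaP and 0.645 in DMSO, and at 48 h 0.0665 in BaP and 0.624 in DMSO. Over all listed genes with a positive log2 fold change, the controls were also the more widely spread group at 24 and 48 h, with medians of 0.176 in BaP and 0.173 in DMSO at 6 h, 0.287 in BaP and 0.558 in DMSO at 24 h, and 0.234 in BaP and 0.509 in DMSO at 48 h. At 24 and 48 h each of the members thus had a wider spread in controls than in BaP-treated cells, up to an SD of 2.19 for *phk* in the controls at 24 h.

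**Figure D2:**
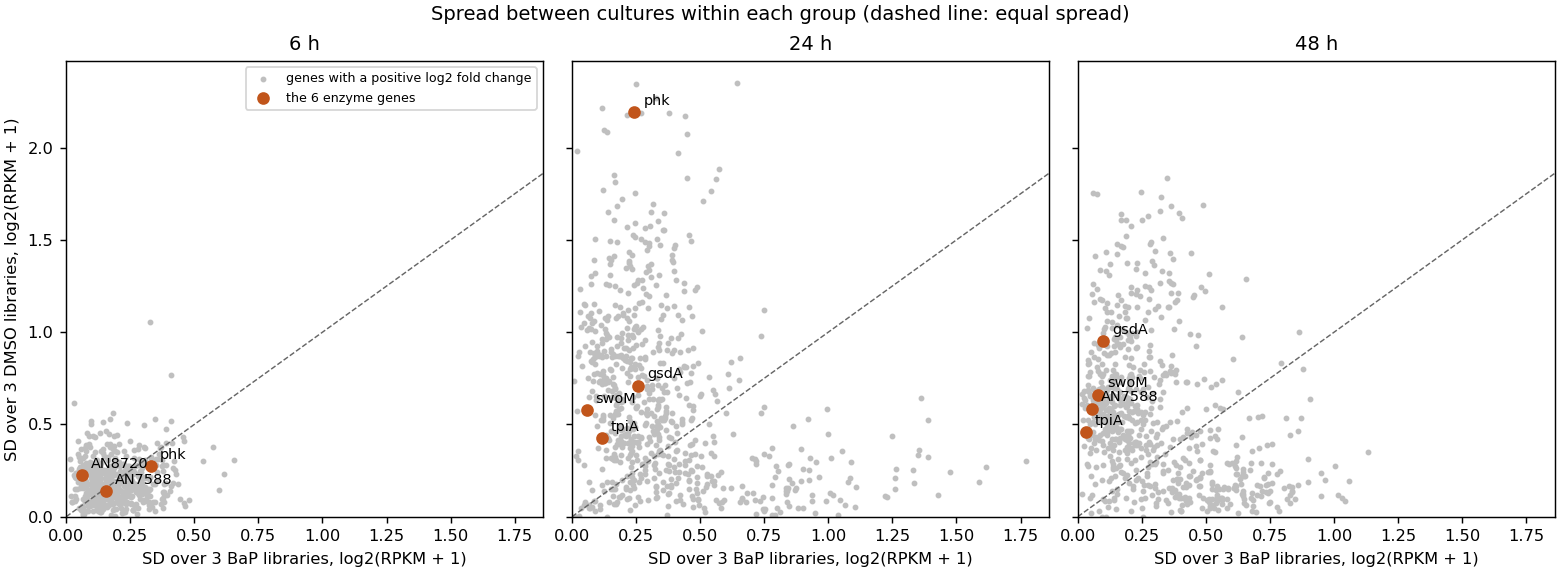
SD of log2(RPKM + 1) over the 3 BaP libraries (x axis) and over the 3 DMSO libraries (y axis) for genes with a positive log2 fold change, with the 6 enzyme genes in orange and a dashed line at equal spread. At 24 and 48 h the orange points all lie above the line, and *phk* at 24 h stands near the top with an SD of 2.19 in DMSO and 0.243 in BaP.

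Other enzymes of glycolysis, gluconeogenesis, the pentose phosphate pathway and pyruvate decarboxylation were taken from a list of descriptions, symbols and gene IDs, which matched 18 further listed genes. At 6 h, 7 of 8 rose with BaP and 1 did not pass the threshold, where 63.6% of all listed genes rose. With rescaled values, which lower the listed genes at 6 h by construction, none of the 8 passed and 5 had a negative value. At 24 h, 6 of 10 rose, 1 fell and 3 did not pass, where 41.5% of all listed genes rose and 32.6% fell. Without B22, B24 or D25 none of the 10 passed, and 1 of all 1503 listed genes passed in each of these fits. At 48 h, 3 of 7 rose, 2 fell and 2 did not pass, close to the 40.9% that rose and 43.0% that fell among all listed genes. Their median log2 fold change was 1.14 at 6 h, 1.16 at 24 h and -0.72 at 48 h.

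Phosphofructokinase, which commits fructose 6-phosphate to glycolysis, was listed at every time. Its gene *pfkA* had 61.4, 73.9 and 59.9 RPKM with BaP and 14.8, 17.8 and 16.1 in controls at 6 h, a log2 fold change of 1.93 (SE 0.16, limma adjusted p = 3.0e-08). The log2 fold change of *pfkA* was 1.68 at 24 h (SE 0.51, limma adjusted p = 0.0206) and 1.90 at 48 h (SE 0.47, limma adjusted p = 0.0032). It was 1.10 without D27 and 2.18 without D26 at 24 h, and between 1.44 and 2.57 with each library left out at 48 h. The gene *fbpZ*, a putative fructose-2,6-bisphosphate 2-phosphatase that removes an activator of phosphofructokinase, rose as well, with log2 fold changes of 1.20 at 24 h and 1.17 at 48 h (0.97 at 48 h without D31). A second phosphoglycerate mutase gene, *pgmA*, rose by 1.65 at 6 h and 2.20 at 24 h on the log2 scale, and the value at 24 h was 1.40 without D27 and 2.87 without D26. The ratio of AN8720 to *pgmA* at 6 h was 2.19, 1.65 and 1.93 with BaP and 2.05, 1.85 and 2.05 with DMSO, so this pair of genes kept overlapping proportions. A second triose-phosphate isomerase gene, *tpiB*, had 412, 669 and 605 RPKM with BaP, against 257, 356 and 79.5 with DMSO at 24 h, a log2 fold change of 1.50 (SE 0.54, limma adjusted p = 0.0327). The *tpiB* call held only without D26, at 1.94, and the value was 0.86 without D27. How far reads of *tpiA* and *tpiB*, or of AN8720 and *pgmA*, could be exchanged between gene copies was not tested.

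Hexokinases phosphorylate glucose, and 3 genes with that annotation were listed, each at a different time. At 24 h *hxkA* had 319, 296 and 290 RPKM with BaP, against 108, 226 and 38.9 with DMSO, a log2 fold change of 1.60 (SE 0.57, limma adjusted p = 0.0313). This call held only without D26, where the value was 2.20, and it was 0.94 without D27. At 6 h *hxkB* averaged 16.5 ± 5.27 RPKM with BaP and 7.74 ± 1.65 with DMSO, and at a log2 fold change of 0.97 *hxkB* stayed under the threshold; after rescaling this value was -0.17. At 48 h *hxkC*, described as an atypical hexokinase without catalytic activity that regulates proteases during carbon starvation, fell to 28.6, 62.2 and 29.9 RPKM with BaP, against 147, 159 and 110 with DMSO (log2 fold change -1.84, SE 0.36, limma adjusted p = 0.0016). The changes of these genes therefore cannot be set against each other at a shared time.

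Pyruvate decarboxylase, which turns pyruvate to acetaldehyde, was represented by a gene that rose and another that fell, at different times. At 6 h *pdcA* had 146, 161 and 140 RPKM with BaP and 63.1, 74.5 and 66.7 with DMSO (log2 fold change 1.12, and -0.12 after rescaling). The log2 fold change of *pdcB* was -1.93 at 24 h (SE 0.29, limma adjusted p = 0.0155) and -1.94 at 48 h (SE 0.38, limma adjusted p = 0.0016), with 6.33, 10.5 and 7.70 RPKM with BaP and 35.8, 25.4 and 41.0 in controls at 24 h. No library of *pdcB* overlapped between groups at either time. The other genes that rose at 6 h were AN9180, a putative transketolase of the non-oxidative branch (1.16), *acuF*, phosphoenolpyruvate carboxykinase of gluconeogenesis (1.03), and AN10233, with a predicted phosphogluconate dehydrogenase domain (1.00), each given as a log2 fold change. After rescaling these 3 values were -0.089, -0.22 and -0.18. The call of *acuF* was lost without B17 (0.91) or D19 (0.97), and that of AN10233 without B16 (0.95), B17 (0.94), D19 (0.98) or D21 (0.88). AN11009, a putative mitochondrial pyruvate carboxylase, which makes oxaloacetate, rose by 1.03 on the log2 scale at 48 h, but fell short of the limit without B29 (0.95), B30 (0.99), D31 (0.96) or D32 (0.96).

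Several genes annotated to the pentose phosphate pathway had low levels, with lower means in BaP-treated cells. AN2335, with the same predicted dehydrogenase domain as AN10233, averaged 1.50 ± 0.10 RPKM with BaP and 3.06 ± 0.51 in controls at 24 h. AN8935, a putative transferase of the pentose phosphate or xylulose pathway, averaged 0.43 ± 0.13 RPKM with BaP and 1.17 ± 0.33 in controls at 24 h, and AN8551, described in the same words, averaged 0.85 ± 0.40 with BaP and 1.72 ± 0.27 with DMSO at that time. At 48 h AN8551 averaged 0.89 ± 0.48 RPKM with BaP and 2.05 ± 0.12 with DMSO. AN6135, a putative phosphogluconate dehydrogenase, averaged 1.26 ± 0.62 RPKM with BaP and 3.28 ± 0.74 in controls at 48 h (SD, n = 3 each). None of these passed the threshold on log2(RPKM + 1), where the added 1 shrinks the folds of such low genes. With 0.1 added, AN8551 and AN8935 passed at 24 h, at -1.03 and -1.27 on the log2 scale, and AN6135 passed at 48 h, at -1.38. AN8551 then passed at 48 h too, where all 7 of the other pathway genes did. AN6114 was matched only through the words deoxyribose-5-phosphate lyase in its description, which otherwise names DNA polymerase and primase activities. Its log2 fold change was 1.37 at 6 h and 1.12 at 24 h, where the call held only without D26 (1.56) and the value was 0.68 without D27.

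**Figure D3:**
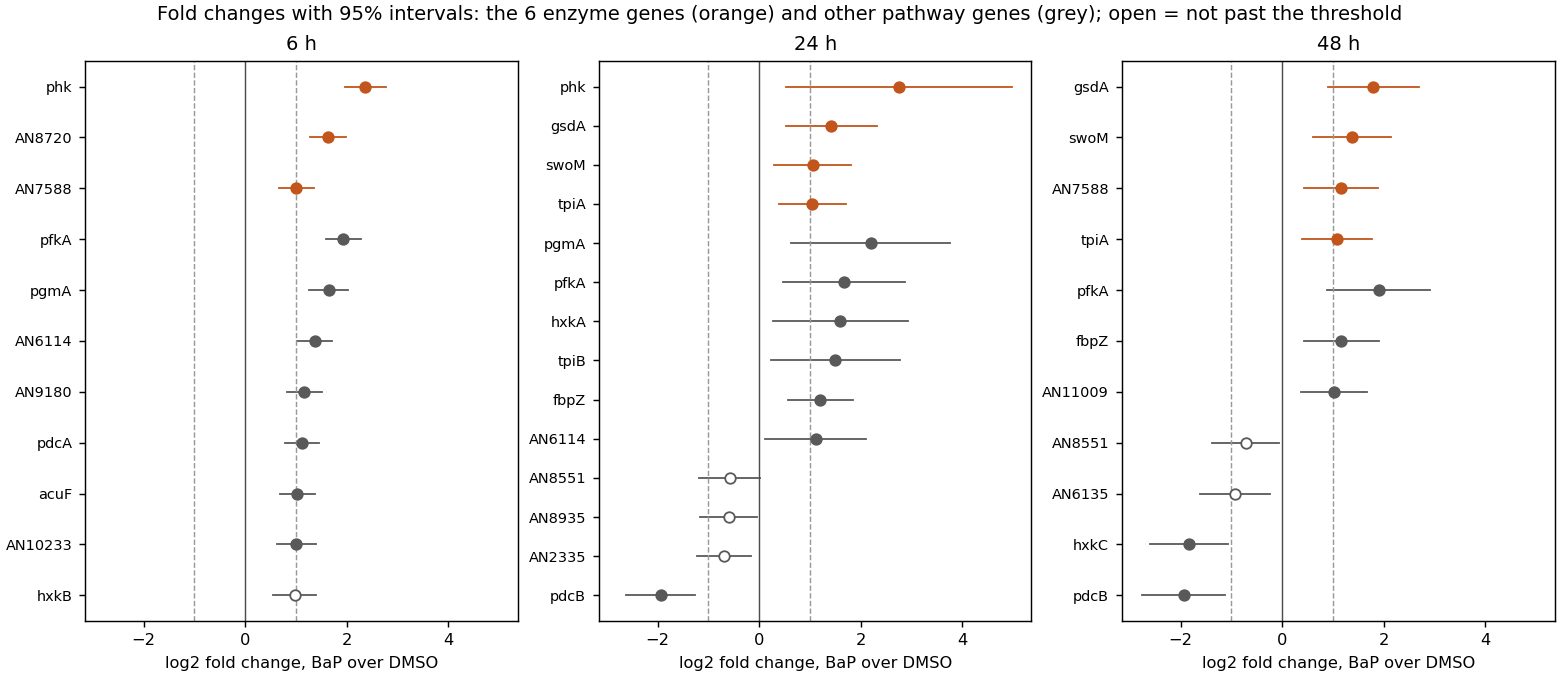
Log2 fold change of BaP over DMSO with its 95% interval (x axis) for the 6 enzyme genes in orange and the other pathway genes in grey, for 6, 24 and 48 h from left to right; open points did not pass the threshold and dashed lines mark a log2 fold change of 1 and -1. The intervals are widest at 24 h, where that of *phk* runs from 0.53 to 4.98, and *pdcB* and *hxkC* are the genes that passed downward.

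**Figure D4:**
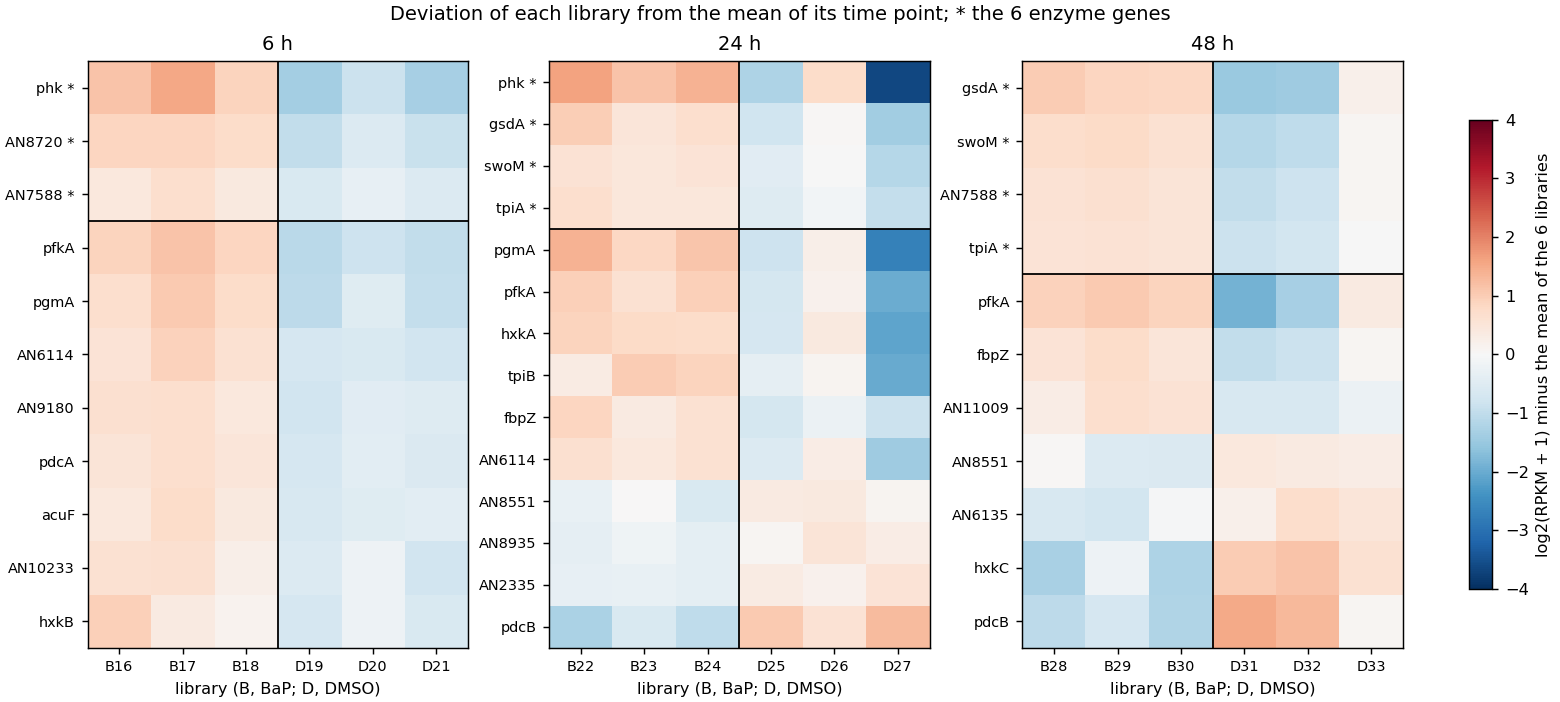
Deviation of log2(RPKM + 1) in each library from the mean of the 6 libraries of its time point, in colour, for the 6 enzyme genes (marked with a star, above the line) and the other pathway genes; BaP libraries stand left of DMSO libraries. D26 at 24 h and D33 at 48 h are the palest control columns for the genes that rose, and D27 is the darkest control column for them at 24 h.

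Beside these pathways, 4 genes that the study itself names were looked up, which stand for no larger group. Citrate synthase (*citA*) rose by 1.42 at 24 h and 1.88 at 48 h on the log2 scale, and cytochrome *c* (*cycA*) by 1.71 and 1.51 at these times. In the glyoxylate cycle, which lets acetyl units be used for growth, malate synthase (*acuE*) rose by 1.36 at 6 h and 1.51 at 24 h and isocitrate lyase (*acuD*) by 1.37 at 6 h. At 24 h the controls of *citA*, *cycA* and *acuE* spread over 2.80, 2.74 and 2.82 times. Each of these 24-h calls held in 3 of 6 fits with 1 library left out, and the calls at 6 and 48 h held in all 6. Rescaled values, which are lower at 6 h by construction, are not given for these genes. After rescaling, 28 of the 703 genes listed at 6 h passed upward, against 447 without it.

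The labels give the tissue as hyphae. Of 7 markers of conidiophores and conidia (*brlA*, *abaA*, *wetA*, *wA*, *yA*, *rodA* and *dewA*), 3 were listed at 6 h, none at 24 h and 1 at 48 h. At 6 h the summed level of these 3 was 52.3 to 70.9 RPKM with BaP and 16.4 to 39.4 with DMSO. The hydrophobin gene *rodA* rose by 1.51 on the log2 scale and the laccase gene *yA* by 1.46, where 63.6% of all listed genes rose. For *rodA*, control D20 (30.2 RPKM) lay close to the lowest BaP library, B18 (31.4), and D19 and D21 had 8.59 and 7.21. The regulator *abaA* averaged 0.73 ± 0.31 RPKM with BaP and 1.71 ± 0.47 with DMSO (SD, n = 3 each). At -0.65 on the log2 scale *abaA* was not called, where the added 1 shrinks the fold of such a low gene. At 48 h *yA* had 43.4 to 50.8 RPKM with BaP and 17.8 to 31.6 with DMSO, and at a log2 fold change of 0.94 it was not called. The part of spore-forming cells in the values of the 6 enzyme genes was not tested, and in these bulk samples a different share of cells and a different level per cell cannot be told apart.

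For each member, the listed genes with the most similar pattern were found by the root mean square difference of log2(RPKM + 1), centred on each time point, over the libraries of the tables that list the member. For *phk*, over 12 libraries and 373 genes, these were AN5323, with a predicted membrane transporter domain (0.10), AN8592, with a predicted FAD-dependent oxidoreductase domain (0.16), and *gfdB*, a putative glycerol 3-phosphate dehydrogenase (0.18), against a median difference of 0.87. For AN8720, over 6 libraries and 702 genes, they were AN0408, an ortholog of triglyceride lipases (0.036), *hk2* (0.053) and AN5764 (0.074), with a median of 0.32. For AN7588, over 12 libraries and 240 genes, they were the DNA damage checkpoint gene *uvsD* (0.072), the dynactin subunit gene *nudR* (0.092) and AN11023 (0.093), with a median of 0.44.

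The genes *gsdA*, *swoM* and *tpiA* were compared over the same 12 libraries with 914 genes each. The nearest genes to *gsdA* were AN5404 (0.078), AN12057 (0.091) and AN3687 (0.099). Those nearest to *swoM* were AN11055 (0.097), AN3425 (0.10) and AN7042 (0.11), and those nearest to *tpiA* were AN5166, a putative CDP-diacylglycerol synthetase (0.074), AN9528 (0.079) and the elongation factor gene *rtfA* (0.088). The difference was 0.15 between *swoM* and *tpiA*, 0.26 between *gsdA* and *swoM* and 0.38 between *gsdA* and *tpiA*, where the median over all genes was 1.25 for *gsdA*, 1.08 for *swoM* and 1.02 for *tpiA*. None of the 3 nearest genes of *gsdA*, *swoM*, *tpiA* or AN8720 was another of the 6 enzymes. For *phk* and AN7588 this could not arise, because no other member was listed at both of their time points.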

How the data were processed

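Of 21 samples, the 18 libraries with BaP or DMSO were analysed and the 3 taken at the start were not used here. The submitters' notes name FastQC, Subread, featureCounts, limma and Cufflinks, and the paper refers to earlier work for the analysis. Aligner settings and genome build are not given in the sources used here. The authors deposited 1 table of selected DEGs per time point (703, 1503 and 1529 genes) with values per library whose unit is not named and which are read here as RPKM. Multiplied by the transcript length and library size that were recovered from them, 1590 of 1590 low values (up to 12 reads) lay within 0.1 reads of a whole number. The library sizes were chosen to bring such values near whole numbers, so this agreement is no check of the sizes. The authors' deposited mean expression, on a log2 scale, served to recover lengths. Their own fold changes, p-values and adjusted p-values were not used.

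Columns name the treatment and time but no replicate, so the cultures were treated as unpaired, and whether they were paired is not known. The labels number the cultures but do not say how independent they were, so p-values measure only the spread between these samples. BaP was compared with DMSO within each time point on log2(RPKM + 1) by limma (version 3.58.1; R 4.3.3), without filter or covariates, with Benjamini-Hochberg adjustment over the listed genes. Fold changes on this scale understate those of low genes. An exact two-sided permutation test of 3 against 3 cannot go below 0.1 and was not used. The fit was tested on simulated data. Alternatives were pseudocounts of 0.1 and 10, a minimum mean of 1 RPKM, limma trend, median-of-ratios rescaling, voom on the recovered reads, an adjusted p of 0.01, adjustment over the 10453 protein-coding genes of RefSeq, and leaving out each library. The text names all members at each time they are listed, all genes matched by the pathway list, the 3 genes nearest to each member, and *citA*, *cycA*, *acuD* and *acuE*. Members and lists were chosen with earlier results of these data known. Tables and figures were made with Python 3.11.15, numpy 2.4.6, pandas 2.3.3 and matplotlib 3.10.9.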

Additional observations from a re-analysis of the deposited data

How the results depend on the processing

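Over all single values, those of the members kept direction and side of the threshold in 119 comparisons with an alternative, lost the call in 34 and changed sign in 1, and those of the other pathway genes did so in 266, 63 and 5, with 15 more that gained a call. Members past the threshold numbered 2 to 3 at 6 h, 0 to 4 at 24 h and 2 to 4 at 48 h when each library was left out in turn, other pathway genes 5 to 8, 0 to 7 and 4 to 5, and all listed genes 448 to 552, 1 to 1238 and 1080 to 1404. The 24-h counts of members and of other pathway genes were both 0 without B22, B24 or D25, where 1 of all 1503 listed genes passed.

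With a pseudocount of 10, the count of listed genes was 284 (520 with a pseudocount of 1) at 6 h, 367 (1114) at 24 h and 619 (1283) at 48 h, that of members was 1 at 24 h, and that of other pathway genes was 3 at 24 h and 3 at 48 h. At 24 h, an adjusted p of 0.01 left 1 listed gene, 0 members and 0 other pathway genes, and so did adjustment over the RefSeq genes, an alternative chosen after seeing the data, while 1406 genes had an unadjusted limma p under 0.05. All 11 member calls were kept by voom on the recovered reads. Median-of-ratios rescaling shifts the median log2 fold change by -1.12 at 6 h, 0.017 at 24 h and 0.19 at 48 h. Its factors centre each library on the listed genes, so these shifts arise by construction. At 6 h most listed genes rose, and at 48 h their median log2 fold change was -0.56. Rescaling left 184 genes at 6 h, of which 15.2% were higher with BaP (86.0% as deposited, 96.5% with a pseudocount of 10). Those 184 included 1 of 3 members and 0 of 8 other pathway genes. At 48 h it put the share of higher genes at 72.6% (48.7% as deposited). The values that changed sign were all at 6 h with rescaling: AN7588 at -0.21, *acuF* at -0.22, AN10233 at -0.18, *hxkB* at -0.17, *pdcA* at -0.12 and AN9180 at -0.089.

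No paired analysis was possible because the columns carry no replicate numbers. Adjustment over the number of genes the authors tested was not run, since that number is only implied by their own p-values. Each member had at least 244 reads in each library of the times at which it was listed. The effect of depth on the values was not tested.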
